A study of Mus musculus with 14 samples.

Results

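Germ cells of the newborn mouse testis were compared between animals without the histone demethylase gene Jmjd1a that kept 1 copy of the related gene Jmjd1b and controls with 1 copy of each. The comparison took the libraries labelled P3_Jmjd1aKO (2) and P3_Ctrl (2), which are 4 of the 14 libraries of the series. The other groups show how far the difference holds elsewhere, and all 14 libraries set the spread used in the tests. The 4 libraries compared came from male germ cells of C57BL/6 testes at postnatal day 3 (P3). All 4 carried Vasa-Cre, a Cre recombinase driven by a germ cell promoter. The control genotype (Ctrl) was Jmjd1a-/+; Jmjd1b-/+, and the knockout genotype (Jmjd1aKO) was Jmjd1a-/-; Jmjd1b-/+, so that both sides already lacked 1 copy of Jmjd1b. Further P3 groups of 2 libraries each were Jmjd1bKO (Jmjd1a-/+; Jmjd1b-/-), DKO (both genes -/-) and WT, the first 2 of them also with Vasa-Cre. No sort of the cells is named in the labels, nor whether the 2 libraries of a group are of separate animals, and the p-values below therefore cover only the spread between these samples.

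Jmjd1a (Kdm3a in the files) and Jmjd1b (Kdm3b) are genes of the Jumonji family whose enzymes remove mono- and dimethyl marks from lysine 9 of histone H3 (H3K9), a modification tied to gene silencing. Jmjd1a is known in the testis for its part in late sperm formation, and its transcription is induced by low oxygen in many cells. Around the age studied, prospermatogonia leave their resting state and form the first spermatogonia, some of which become stem cells that depend on the growth factor GDNF and its receptor.

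The data are RPKM values, read numbers per gene scaled to transcript length and to the size of the library. They were compared as log2(RPKM + 1), so that a log2 change understates the change of a gene with low RPKM. Of 24340 gene symbols, 13598 reached 1 RPKM in 2 or more of the 4 libraries and were kept. A gene is called when the adjusted p of limma (Benjamini-Hochberg over all genes kept) was under 0.05. A separate, weaker description is whether both knockout libraries lay above, or below, both control libraries. The depth estimated from the steps between low RPKM values was 39 and 43.9 M (mega) fragments in Ctrl and 41.5 and 26.4 M in Jmjd1aKO. A log2 change had a median SE of 0.181, which puts a 95% interval at plus or minus 0.404 for a gene of typical spread. The 2 Jmjd1aKO libraries correlated with each other across genes at r = 0.948 and the 2 Ctrl libraries at r = 0.968.

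The cells expressed germ cell genes in both groups: Ddx4, which encodes the RNA helicase Vasa, stood at 238 and 251 RPKM in Ctrl and 208 and 224 RPKM in Jmjd1aKO. The summed RPKM of 24 pan-germ-cell genes was 2387 and 2420.2 in Ctrl, 2333 in Jmjd1aKO replicate 1 and 2007 in replicate 2. Jmjd1aKO replicate 2 stood apart by transcripts of the somatic cells of the testis. The sum over 24 markers of Sertoli cells, which nurse the germ cells, was 236 and 223 RPKM in Ctrl, 227 in Jmjd1aKO replicate 1 and 1681 in replicate 2, where 22 of the 24 were at their highest of the 4 libraries and none was listed at 0. Markers of Leydig cells, the steroid-making cells between the tubules, summed to 82.8 and 69.1 RPKM in Ctrl and to 79.1 and 151 in the Jmjd1aKO libraries. Peritubular and stromal markers summed to 32.7 and 22.3 RPKM in Ctrl and to 39.8 and 94.8 in Jmjd1aKO. The same library held the erythroid haemoglobin transcript Hbb-b1 at 43.7 RPKM, against 0.201 in replicate 1 and 0.155 and 0.0451 in Ctrl. Endothelial markers did not follow this order, with sums of 112 and 108 RPKM in Ctrl and 92.6 and 83 in Jmjd1aKO. Jmjd1bKO replicate 2 was alike, with a Sertoli sum of 2002 RPKM against 242 in its partner. In bulk samples such as these, fewer cells of a type and less RNA per cell cannot be told apart. Because of replicate 2, the median change in replicate 1 alone is given beside that of each gene list below whose median is given.

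The deleted gene was lower in both knockout libraries. Kdm3a (chromosome 6, 71588972 to 71632990, GRCm38) stood at 28.4 and 26.3 RPKM in Ctrl and at 9.83 and 9.84 RPKM in Jmjd1aKO. The groups did not overlap, and Kdm3a fell from 27.3 ± 1.5 to 9.83 ± 0.011 RPKM (mean ± SD, n = 2; log2 change -1.39 ± 0.11, SE; limma adjusted p = 0.000765). Transcript of Kdm3a thus remained, and the values do not say which part of the gene it came from. Kdm3b, the gene with 1 copy on both sides, stood at 10.2 and 13.5 RPKM in Ctrl and 9.81 and 13.9 RPKM in Jmjd1aKO, and the groups overlapped (log2 change 0.00 ± 0.21, adjusted p = 0.998). With 1 knockout library against both controls, the change of Kdm3b was -0.24 in replicate 1 and 0.23 in replicate 2. The other members of the demethylase list were also close between groups, among them Jmjd1c, the third member of the gene family, at 47.3 and 34.8 against 45.3 and 32.8 RPKM. Kdm1a, the lysine demethylase also called LSD1, stood at 104 and 92.8 against 101 and 85 RPKM. Of 12 H3K9 demethylase genes kept, 1 was called, Kdm3a itself, and the median log2 change was 0.01 (replicate 1 alone -0.08, replicate 2 alone 0.01).

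Across all genes kept, 5 were called, 2 higher and 3 lower in Jmjd1aKO, which is 0.0368% of the genes tested. They were Kdm3a, Eml2, 1700015G11Rik and the microRNA loci Mir6898 and Mir93. Before adjustment 1440 genes (10.6%) had p under 0.05. Both knockout libraries lay above both controls for 2294 genes (16.9%) and below for 2618 (19.3%), and these shares are the background for the counts of gene groups below. The median log2 change over all genes was -0.01. The calls of Eml2 and 1700015G11Rik were not stable. That of 1700015G11Rik was lost when any 1 of the 4 libraries was left out (adjusted p = 0.121 without Ctrl replicate 1, 0.166 without Ctrl replicate 2, 0.132 without Jmjd1aKO replicate 1 and 0.288 without Jmjd1aKO replicate 2), and that of Eml2 without Ctrl replicate 2 (0.166), Jmjd1aKO replicate 1 (0.24) or Jmjd1aKO replicate 2 (0.131).

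Eml2, which encodes a microtubule-associated protein, was the protein-coding gene that rose. It stood at 5.62 and 3.57 RPKM in Ctrl and 16.3 and 13.3 RPKM in Jmjd1aKO, and both knockout libraries were far above both controls. The rise was from 4.6 ± 1.45 to 14.8 ± 2.1 RPKM (mean ± SD, n = 2; log2 change 1.52 ± 0.19; limma adjusted p = 0.031). Without Ctrl replicate 2 the log2 change was 1.25, and without Jmjd1aKO replicate 1 or replicate 2 it was 1.38 or 1.65. Outside the comparison, Eml2 stood at 3.74 and 3.22 RPKM in WT and 5.43 and 5.91 RPKM in Jmjd1bKO, near the control level, and at 13 and 16.3 RPKM in DKO. Thus the 4 libraries without Jmjd1a all lay above the 6 other P3 libraries. Of the 6 Eml family genes kept, Eml2 was the 1 called. Eml3 stood at 9.76 and 9.5 against 12.6 and 11.5 RPKM and Eml4, the most abundant member, at 62.9 and 59.2 against 60.8 and 61 RPKM.

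1700015G11Rik (chromosome 7, 52011683 to 52015728, GRCm38, protein coding), which RefSeq also lists as Ccdc179, was the other protein-coding gene called besides Kdm3a and Eml2. It stood at 5.86 and 4.66 RPKM in Ctrl and at 0.473 and 0.18 RPKM in Jmjd1aKO, so that little signal was left in either knockout library. It fell from 5.26 ± 0.849 to 0.326 ± 0.207 RPKM (log2 change -2.24 ± 0.28; limma adjusted p = 0.031); leaving out 1 of the 4 libraries moved the log2 change between -2.40 and -2.08. It stood at 7.55 and 8.81 RPKM in WT and 5.49 and 3.5 RPKM in Jmjd1bKO. In DKO 1 library listed it at 0 and the other at 0.768 RPKM, so the 4 libraries without Jmjd1a were again on 1 side of the other 6.

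The remaining calls were at small RNA loci. The libraries were made from mRNA, so these numbers do not measure mature microRNAs. Mir6898 was listed at 0 in both Ctrl libraries and at 46.2 and 40.4 RPKM in Jmjd1aKO (adjusted p = 2.3e-08), and it was listed at 0 in the 6 other P3 libraries. It lies in an intron of Kansl3 (chromosome 1, 36348682 to 36348758, GRCm38), on the same strand, and Kansl3 itself stood at 22.2 and 20.4 RPKM in Ctrl and 20.1 and 24.9 RPKM in Jmjd1aKO. Mir93 was the converse, at 23.3 and 21.1 RPKM in Ctrl and listed at 0 in both Jmjd1aKO libraries (adjusted p = 6.05e-08), and also in all 6 other P3 libraries. It overlaps an annotated exon of Mcm7 (chromosome 5, 138165523 to 138165610), and Mcm7 stood at 188 and 222 RPKM in Ctrl and 158 and 184 RPKM in Jmjd1aKO. Mir25 of the same locus varied within a group, at 59.1 and 0 RPKM in Ctrl and 28.6 and 56.5 RPKM in Jmjd1aKO. A value of exactly 0 in these files is therefore not taken as absence. Groups listed at 0 in both libraries also show no spread, which lowers the SE behind the adjusted p-values of Mir6898 and Mir93. Mir6898 was kept through its Jmjd1aKO values alone and Mir93 through its Ctrl values alone. Of 29 genes with an absolute log2 change of 3 or more in the comparison, 28 were small RNA loci. The mature products of the called loci are shown to identify them, from RefSeq on GRCm38.p6, with the seed (bases 2 to 8) in capitals. Their seeds differ.
miR-93-5p: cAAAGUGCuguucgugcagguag
miR-93-3p: aCUGCUGAgcuagcacuucccg
miR-6898-5p: uGUAAGGGgagaugcagggagc
miR-6898-3p: aAGUCUCUuuguaccuucucu

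Among the named genes that did not pass the adjusted threshold, the largest difference was at Cd209c (chromosome 8, 3940222 to 3954746), a gene of the C-type lectin family that binds sugars. It stood at 12.7 and 6.78 RPKM in Ctrl and 78.1 and 48 RPKM in Jmjd1aKO. Both knockout libraries were above both controls, with a log2 change of 2.59 ± 0.42 and an adjusted p of 0.1. It stood at 7.88 and 6.16 RPKM in WT, 9.15 and 9.9 in Jmjd1bKO and 374 and 137 in DKO, so its order was WT, Ctrl and Jmjd1bKO together, then Jmjd1aKO, then DKO. No other of the 7 Cd209 genes in the files was kept. Dbhos, a noncoding transcript antisense to the dopamine beta-hydroxylase gene, had the same order at lower levels, with 0.883 and 0.621 RPKM in Ctrl, 4.9 and 3.12 in Jmjd1aKO, 0.719 and 0.672 in Jmjd1bKO and 19.2 and 8.21 in DKO (log2 change in Jmjd1aKO 1.50 ± 0.31, adjusted p = 0.209). Dbhos was under 1 RPKM in both Ctrl libraries and passed the filter through its Jmjd1aKO values alone. It could thus enter the comparison only as a rise. Whether the counting used strand is not given in the sources used here.

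Germ cell regulators were among the other genes of low p. Sohlh2, a helix-loop-helix factor needed by early spermatogonia, stood at 65.4 and 69.6 RPKM in Ctrl and 42.3 and 41.1 RPKM in Jmjd1aKO. Both knockout libraries were lower (log2 change -0.68 ± 0.10, adjusted p = 0.0708), while its partner Sohlh1 overlapped between groups at 133 and 106 against 137 and 105 RPKM. Dppa5a, an RNA-binding protein gene of pluripotent and early germ cells, stood at 52.1 and 55.2 RPKM in Ctrl and 82.5 and 90.1 RPKM in Jmjd1aKO (log2 change 0.67 ± 0.10, adjusted p = 0.0724). Dhrs3, a retinaldehyde reductase that limits retinoic acid, stood at 6.99 and 8.87 against 2.41 and 3.55 RPKM, and both knockout libraries were below both controls (log2 change -1.17 ± 0.18, adjusted p = 0.1).

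**Figure D1:**
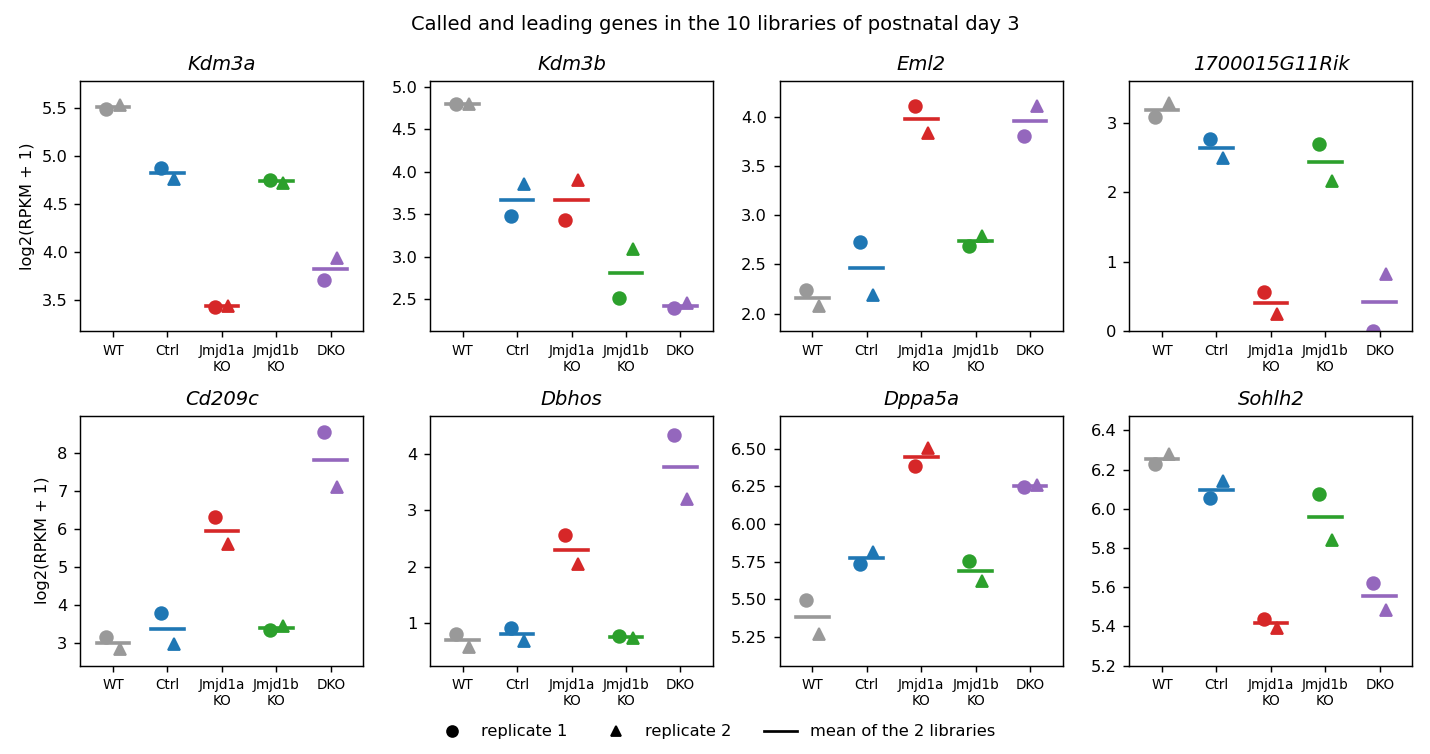
Each panel shows log2(RPKM + 1) of 1 gene in the 10 libraries of day 3, with circles for replicate 1, triangles for replicate 2 and a bar at the mean of the 2 libraries; the axes do not start at 0. The red Jmjd1aKO points lie with the DKO points and apart from Ctrl for Kdm3a, Eml2 and 1700015G11Rik, and between Ctrl and DKO for Cd209c and Dbhos.

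The stretches just before start sites were searched to show what the leading genes share in sequence. The 250 bases before the RefSeq start of 3 genes that were higher in both knockout libraries are printed 5′ to 3′ from GRCm38.p6, with each CG dinucleotide, the site of DNA methylation, in capitals. The Eml2 stretch is chr7:19176171-19176420 on the plus strand, that of Cd209c chr8:3946864-3947113 on the minus strand, and that of Dbhos chr2:27162704-27162953 on the minus strand. The Eml2 stretch belongs to the more upstream of its listed starts. The start listed for Cd209c is that of a shorter transcript, so its stretch lies inside the span given above for the gene and not before it.
Eml2: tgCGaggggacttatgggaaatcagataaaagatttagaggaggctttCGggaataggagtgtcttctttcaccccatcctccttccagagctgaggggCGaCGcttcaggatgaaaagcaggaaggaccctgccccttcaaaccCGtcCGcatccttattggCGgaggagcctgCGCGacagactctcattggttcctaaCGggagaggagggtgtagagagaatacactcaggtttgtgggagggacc
Cd209c: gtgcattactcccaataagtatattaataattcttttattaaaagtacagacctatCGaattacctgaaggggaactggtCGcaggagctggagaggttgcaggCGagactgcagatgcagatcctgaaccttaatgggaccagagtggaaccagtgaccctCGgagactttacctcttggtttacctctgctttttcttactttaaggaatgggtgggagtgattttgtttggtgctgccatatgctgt
Dbhos: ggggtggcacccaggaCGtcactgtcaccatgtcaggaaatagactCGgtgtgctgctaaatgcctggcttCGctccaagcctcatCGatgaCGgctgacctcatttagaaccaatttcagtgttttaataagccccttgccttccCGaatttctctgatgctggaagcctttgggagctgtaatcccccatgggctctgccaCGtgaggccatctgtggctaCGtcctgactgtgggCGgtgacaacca
They held 10, 4 and 9 CG dinucleotides. Of the genes kept with a promoter in the table (10251), 29%, 10.5% and 25.7% had as many or fewer. Over all genes the median was 16 CG. It was 13 for the 1721 genes whose knockout libraries were both above the controls and 18 for the 1989 whose knockout libraries were both below. The motif CACGTG, its own reverse complement, is the core E-box of basic helix-loop-helix factors. It is in the Dbhos stretch and not in the other 2, and was found in 8.81% of all promoters, 7.84% of the higher and 9.9% of the lower set. These are descriptions of sequence, not of binding.

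The largest differences were also ranked among genes with unadjusted p under 0.05 and groups that did not overlap. This ranking left out microRNA and small nucleolar RNA loci, predicted genes and Rik entries, and thereby the called Mir6898, Mir93 and 1700015G11Rik, whose changes were larger than any ranked in the same direction. Of the 12 largest rises in it, 8 stood more than 2-fold higher in Jmjd1bKO replicate 2 than in replicate 1, namely Dtx1, Mgarp, Slc38a5, Bcan, Tnni3, Hspb1, Ltbp4 and Cabp1. Hspb1, a small heat shock protein gene, stood at 14.5 and 11.5 RPKM in Ctrl, 27.7 and 54.1 in Jmjd1aKO and 14.6 and 64.9 in Jmjd1bKO. Dtx1, a Notch pathway ubiquitin ligase gene, stood at 2.67 and 1.66, 6.85 and 11.4 and 2.68 and 13.1 RPKM in the same order. That Jmjd1aKO replicate 1 was above both controls in both genes follows from the ranking, which required it. The other 4 were Cd209c, Eml2, Dbhos and Apoc2, an apolipoprotein gene at 3.28 and 3.92 RPKM in Ctrl and 5.76 and 18.8 RPKM in Jmjd1aKO. Of the 12 largest falls in the same ranking, 4 stood more than 2-fold lower in Jmjd1bKO replicate 2 than in replicate 1 (Akr1b3, Cdc42ep3, Trf and Kcnj15). Trf encodes the iron carrier transferrin and is in the Sertoli marker list, where it was the 1 kept gene below both controls. It stood at 54.3 and 55.2 RPKM in Ctrl, 27.9 and 17.4 in Jmjd1aKO and 66.2 and 27.1 in Jmjd1bKO. The other 8 were Kdm3a, Tnnt2, Oit1, Ccnd1, Sbsn, Dhrs3, Gfra1 and Osbpl3. The lipid-binding protein gene Osbpl3 stood at 8.36 and 9.24 RPKM in Ctrl, 3.14 and 3.92 in Jmjd1aKO and 7.93 and 6.12 in Jmjd1bKO. Of these 24, Eml2 and Kdm3a were called, and the part of the Sertoli transcripts in these differences was not tested.

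Loss of Jmjd1a could be read a further time in 4 libraries outside Ctrl and Jmjd1aKO. These 4 also entered the fit of all 14 libraries, so the spread behind their p-values is shared with the main comparison. DKO and Jmjd1bKO differ in Jmjd1a and share the absence of Jmjd1b. In that contrast, added after the data were seen, 1014 genes were called higher (7.46%) and 1142 lower (8.4%). The genes tested had been kept by their values in Ctrl and Jmjd1aKO, not in DKO or Jmjd1bKO. With the filter over all 14 libraries, 1275 of 14772 genes were called higher and 1160 lower. Eml2 rose (log2 change 1.23 ± 0.19, adjusted p = 0.00902), as did Cd209c (4.43 ± 0.42, adjusted p = 0.0039) and Dbhos (3.01 ± 0.31, adjusted p = 0.00692), and 1700015G11Rik fell (-2.02 ± 0.28, adjusted p = 0.00788). Sohlh2, Dppa5a and Dhrs3 passed in the direction they had in Jmjd1aKO, with log2 changes of -0.40 ± 0.10, 0.57 ± 0.10 and -0.97 ± 0.18. The number called rests on single libraries: it was 19 without DKO replicate 2, 96 without Jmjd1bKO replicate 2, 670 without DKO replicate 1 and 3325 without Jmjd1bKO replicate 1. It was 588 without both libraries high in Sertoli transcripts and 6 when only the 4 libraries were fitted.

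Genes that were displaced in Jmjd1aKO tended to be displaced alike in the other 4 libraries. Of 620 genes with both knockout libraries above both controls and unadjusted p under 0.05, 79% had a positive log2 change from Jmjd1bKO to DKO, against 49% of all genes kept, and 204 (32.9%) were called higher there and 2 lower. Of 814 with both libraries below, 85.4% had a negative change, against 50.9% of all genes, and 276 (33.9%) were called lower there and 3 higher. Across all 13598 genes the log2 changes correlated at r = 0.14. With replicate 1 alone of both single knockouts, which leaves out both libraries high in Sertoli transcripts, r was 0.308. The 2 contrasts share the spread of each gene, which came from the fit of all 14 libraries. Genes picked by a low p thus tend to have a small SE in both, which raises the shares called. Genes are not independent replicates, and no p is given for these shares.

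The 2 changes by loss of Jmjd1a, with and without a Jmjd1b copy, were also tested against each other. Their difference passed at 3 genes (0.0221%), among them Mir6898 and Mir93, each listed at 0 in at least 1 group. An unadjusted p under 0.05 was found for 1948 genes. For Cd209c the log2 changes were 2.59 with the copy and 4.43 without it (adjusted p of the difference 0.322). For Eml2 they were 1.52 and 1.23 (adjusted p = 0.598). A p that misses the threshold does not show that the 2 changes were equal.

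**Figure D2:**
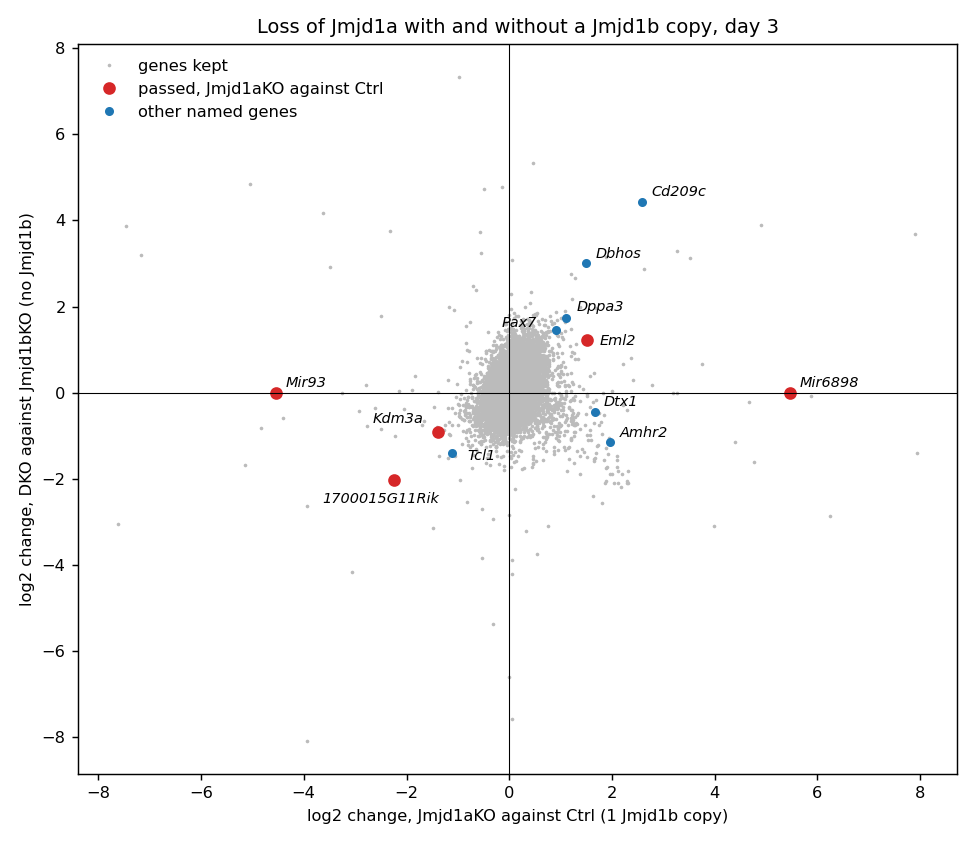
Each point is 1 of the 13598 genes kept, with its log2 change from Ctrl to Jmjd1aKO on the horizontal axis and from Jmjd1bKO to DKO, in other libraries, on the vertical axis; red marks the 5 genes called in the first. Cd209c, Dbhos and Eml2 lie at the upper right and 1700015G11Rik at the lower left, while Dtx1 and the Sertoli gene Amhr2 lie to the right and below 0; 28 of the 29 points beyond 3 on the horizontal axis in either direction are small RNA loci.

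Genes of spermatogonial stem and progenitor cells lay on both sides of the controls. Of 30 kept of 32 listed, none was called, 15 lay below and 10 above in both libraries against a background of 19.3% and 16.9%, and 5 overlapped. The median log2 change was -0.26 (replicate 1 alone -0.17), against -0.01 for all genes. None of the changes of this list passed, and the genes described here were chosen by their role after their values were seen. Below both controls were Gfra1, Ret, Etv5, Bcl6b, Lhx1, Id4, Zbtb16, Foxo1, Lin28a, T, Eomes, Foxc2, Itga6, Glis3 and Ccnd2. Gfra1, the GDNF-binding part of the receptor, stood at 137 and 114 RPKM in Ctrl and 67.9 and 47.7 RPKM in Jmjd1aKO (log2 change -1.12 ± 0.38, adjusted p = 0.37). Ret, its signalling part, stood at 123 and 100.1 against 72.5 and 56.1 RPKM. Both knockout libraries were below both controls for each, and neither gene passed. Etv5, a transcription factor induced by GDNF, stood at 134 and 121 RPKM in Ctrl and 89.3 and 79.1 RPKM in Jmjd1aKO. Bcl6b, another GDNF target and a repressor, stood at 112 and 84.6 against 59.5 and 48.9 RPKM, and Lhx1 at 30.9 and 39.8 against 22.7 and 24.6 RPKM. Id4, an inhibitor of helix-loop-helix factors that marks stem cells, stood at 70.3 and 76 against 55.4 and 48.9 RPKM, and Zbtb16, the zinc finger factor PLZF, at 32.1 and 39.9 against 22.7 and 24.1 RPKM. All 5 had groups that did not overlap, and limma adjusted p-values between 0.385 and 0.656. In the other loss of Jmjd1a, Bcl6b fell (log2 change -1.05 ± 0.31, adjusted p = 0.0489), and Gfra1 and Ret had log2 changes of -0.75 ± 0.38 and -0.66 ± 0.40 that did not pass.

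Above both controls were Pax7, Sox3, Rarg, Nanos3, Utf1, Itga9, Plvap, Tspan8, Sall4 and Upp1. Pax7, a homeobox gene of a rare stem cell subset, stood at 2.57 and 2.39 RPKM in Ctrl and 7.07 and 4.3 RPKM in Jmjd1aKO (log2 change 0.91 ± 0.22, adjusted p = 0.256). Rarg, the retinoic acid receptor of progenitors, stood at 4.31 and 6.55 against 8.73 and 8.41 RPKM, and Utf1, a chromatin factor of undifferentiated cells, at 21.4 and 27.3 against 32.1 and 37.5 RPKM. Nanos3, an RNA-binding protein gene, stood at 10.9 and 14.2 against 16.7 and 18 RPKM. For all of them both knockout libraries were above both controls. Pax7 rose in the other loss of Jmjd1a (log2 change 1.45 ± 0.22, adjusted p = 0.0088), while Nanos3 fell there (-0.88 ± 0.22, adjusted p = 0.0265). Nanos2 overlapped between groups, and so did Egr4, a GDNF-induced transcription factor, at 183 and 129 against 195 and 137 RPKM.

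**Figure D3:**
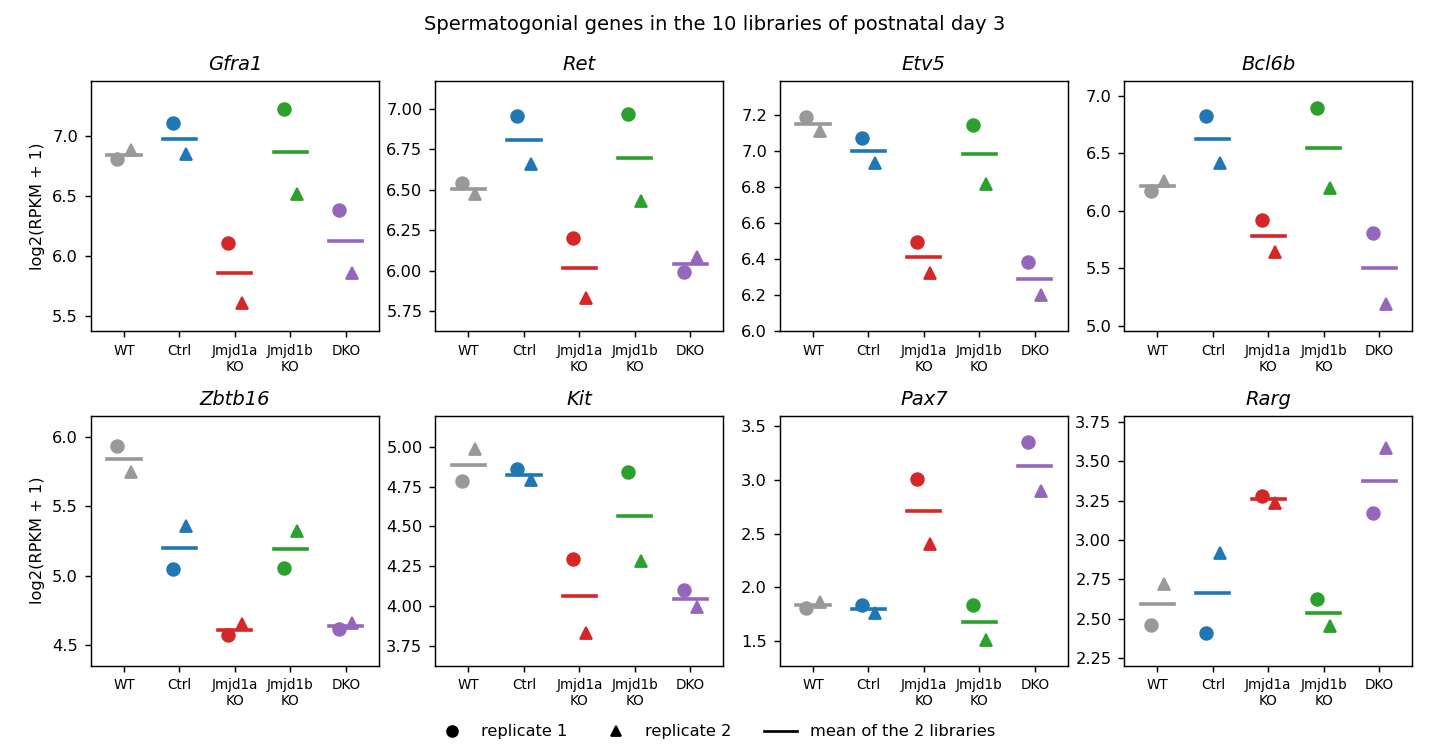
Each panel shows log2(RPKM + 1) of 1 spermatogonial gene in the 10 libraries of day 3, with circles for replicate 1, triangles for replicate 2 and a bar at the mean; the axes do not start at 0. Both Jmjd1aKO libraries lie below both Ctrl libraries for Gfra1, Ret, Etv5, Bcl6b, Zbtb16 and Kit and above them for Pax7 and Rarg.

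Genes of differentiating spermatogonia lay below the controls more often than above. Of 15 kept of 17 listed, none was called, and 8 lay below and 4 above, against 19.3% and 16.9% of all genes kept. The median log2 change of the list was -0.16 (replicate 1 alone -0.10). Kit, the receptor that marks differentiation, stood at 28 and 26.7 RPKM in Ctrl and 18.7 and 13.2 RPKM in Jmjd1aKO (log2 change -0.76 ± 0.20, adjusted p = 0.286). Stra8, the factor that retinoic acid induces before meiosis, stood at 27.7 and 35.9 against 40.4 and 50.7 RPKM, with both knockout libraries above. It fell in the other loss of Jmjd1a (log2 change -1.28 ± 0.27, adjusted p = 0.0194), where Jmjd1bKO replicate 2 held it at 70.0 RPKM. Of 26 genes of meiotic prophase kept of 28 listed, some of which are also in the list before, none was called, 7 lay above and 5 below, and the median log2 change was -0.01 (replicate 1 alone 0.14, replicate 2 alone -0.06). Prdm9, the H3K4 methyltransferase that places meiotic breaks, stood at 1.04 and 0.759 against 1.8 and 1.37 RPKM (adjusted p = 0.456), with both knockout libraries above. Hormad2, a protein gene of the meiotic chromosome axis, stood at 5.15 and 6.87 against 6.87 and 7.78 RPKM, likewise above. Tex11, an X-linked gene of meiotic recombination, stood at 50.0 and 53.7 against 47.2 and 37.4 RPKM, with both knockout libraries below (adjusted p = 0.534).

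Pan-germ-cell genes were close between groups in replicate 1. Of 24 kept, none was called, 8 lay below and 2 above, and the median log2 change was -0.13, with 0.02 in replicate 1 and -0.22 in replicate 2, the library with the Sertoli transcripts. Dazl, an RNA-binding protein that licenses germ cells, stood at 389.9 and 409 RPKM in Ctrl and 351 and 299 RPKM in Jmjd1aKO. In the list of pluripotency and primordial germ cell genes, 20 were kept of 23, 7 lay above and 4 below, and the median was 0.05 (replicate 1 alone 0.11, replicate 2 alone 0.04). Besides Dppa5a, Dppa3, a maternal factor also known as Stella, stood at 1.06 and 1.66 RPKM in Ctrl and 3.93 and 4.13 RPKM in Jmjd1aKO (log2 change 1.10 ± 0.31, adjusted p = 0.312), and it rose in the other loss of Jmjd1a (1.73 ± 0.31, adjusted p = 0.0121). Pou5f1, the factor OCT4, stood at 113 and 118 against 138 and 163 RPKM, with both knockout libraries above, but fell in the other loss (-0.97 ± 0.22, adjusted p = 0.023). Tcl1, a coactivator of the kinase AKT, stood at 86.4 and 97.8 against 45.7 and 38.9 RPKM (log2 change -1.11 ± 0.25, adjusted p = 0.24) and fell in the other loss (-1.40 ± 0.25, adjusted p = 0.0124).

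Genes of DNA replication lay lower in Jmjd1aKO without any of them passing. Of 38 S phase genes, all kept, 19 lay below and none above, and the median log2 change was -0.26 (replicate 1 alone -0.37, replicate 2 alone -0.16). The subunits of the replicative helicase were among the clearest. Mcm2 stood at 169.7 and 199 RPKM in Ctrl and 125 and 138 RPKM in Jmjd1aKO (log2 change -0.48 ± 0.11, adjusted p = 0.24). Mcm3 stood at 199 and 214 against 143 and 151 RPKM and Mcm5 at 119 and 147 against 79.7 and 99 RPKM. Both knockout libraries were below both controls for each of these subunits. Cdt1, which loads the helicase onto DNA, stood at 81.2 and 85.1 against 64.3 and 62.5 RPKM, and Pcna, the clamp of the polymerases, at 249.9 and 288 against 199 and 229 RPKM. In the other loss of Jmjd1a, 24 of the 38 fell and none rose, where 8.4% of all genes were called lower and 7.46% higher. The median log2 change there was -0.65 against -0.01 for all genes, and the number of calls in that contrast rests on single libraries, as given above. Ccnd1, the G1 cyclin D1, stood at 36 and 60.6 RPKM in Ctrl and 14.9 and 26.5 RPKM in Jmjd1aKO (log2 change -1.19 ± 0.33, adjusted p = 0.312). It fell in the other loss (-1.52 ± 0.33, adjusted p = 0.0199), while WT held 129.7 and 125 RPKM.

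Mitotic genes were lower in replicate 1 and close to the control mean in replicate 2. Of 30 genes of G2 and mitosis, all kept, none was called. Of these, 6 lay below and 1 above, against 19.3% and 16.9% of all genes kept. The median log2 change of the list was -0.32, made of -0.58 in replicate 1 and -0.05 in replicate 2. Ccnb1, the mitotic cyclin B1, stood at 96.1 and 120.1 RPKM in Ctrl and 70.4 and 84.4 RPKM in Jmjd1aKO, and the groups did not overlap. Mki67, the proliferation marker, overlapped at 31.7 and 45.9 against 21.9 and 42.2 RPKM, and so did Ube2c at 49.1 and 98.6 against 43.5 and 87.4 RPKM. The control libraries themselves were apart for Ube2c and Mki67. Jmjd1bKO replicate 2 had a median of 0.43 above the control mean for this list, so the library high in Sertoli transcripts was the higher of the pair in both single knockouts; the part of those cells was not tested. The cyclin-dependent kinase inhibitor Cdkn2d stood at 8.35 and 8.96 against 11.3 and 12.1 RPKM, with both knockout libraries above, and Cdkn1a and Cdkn1b overlapped between groups.

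The Rhox genes, a family of homeobox genes clustered on the X chromosome and active in the reproductive tract, lay higher. Of 17 kept of 32 listed, none was called, 14 lay above and 1 below, against 16.9% and 19.3% of all genes. The median log2 change was 0.30 (replicate 1 alone 0.26). Rhox1 (chromosome X, 37213804 to 37222258) stood at 24.6 and 23.5 RPKM in Ctrl and 35.2 and 34.6 RPKM in Jmjd1aKO (log2 change 0.52 ± 0.12, adjusted p = 0.24). Rhox10 (chromosome X, 38066475 to 38071691), the member linked to the founding of the stem cell pool, stood at 23.7 and 28.9 against 39.1 and 41.9 RPKM (log2 change 0.61 ± 0.19, adjusted p = 0.336). For both, the knockout libraries lay clear of the controls. Rhox13, a germ cell member, stood at 26.1 and 25.7 against 30.9 and 30.4 RPKM and Rhox9 at 3.61 and 2.86 against 6.35 and 5.82 RPKM. Rhox5, the founding member of the family, went the other way, at 41.3 and 29.2 RPKM in Ctrl and 19.4 and 14.9 RPKM in Jmjd1aKO. Rhox8, a Sertoli cell gene, stood at 1.23 and 1.22 RPKM in Ctrl and at 1.45 RPKM in Jmjd1aKO replicate 1, and at 36.7 RPKM in replicate 2 alone. In the other loss of Jmjd1a, whose calls rest on single libraries, 8 of the 17 rose and none fell, where 7.46% of all genes were called higher and 8.4% lower. Among the 8 were Rhox1 (log2 change 0.81 ± 0.12, adjusted p = 0.00841) and Rhox10 (0.96 ± 0.19, adjusted p = 0.0147). Members of the family are near-identical copies in part (Rhox2, Rhox3 and Rhox4 subfamilies), and the way the authors' counting shared reads among them is not given in the sources used here.

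**Figure D4:**
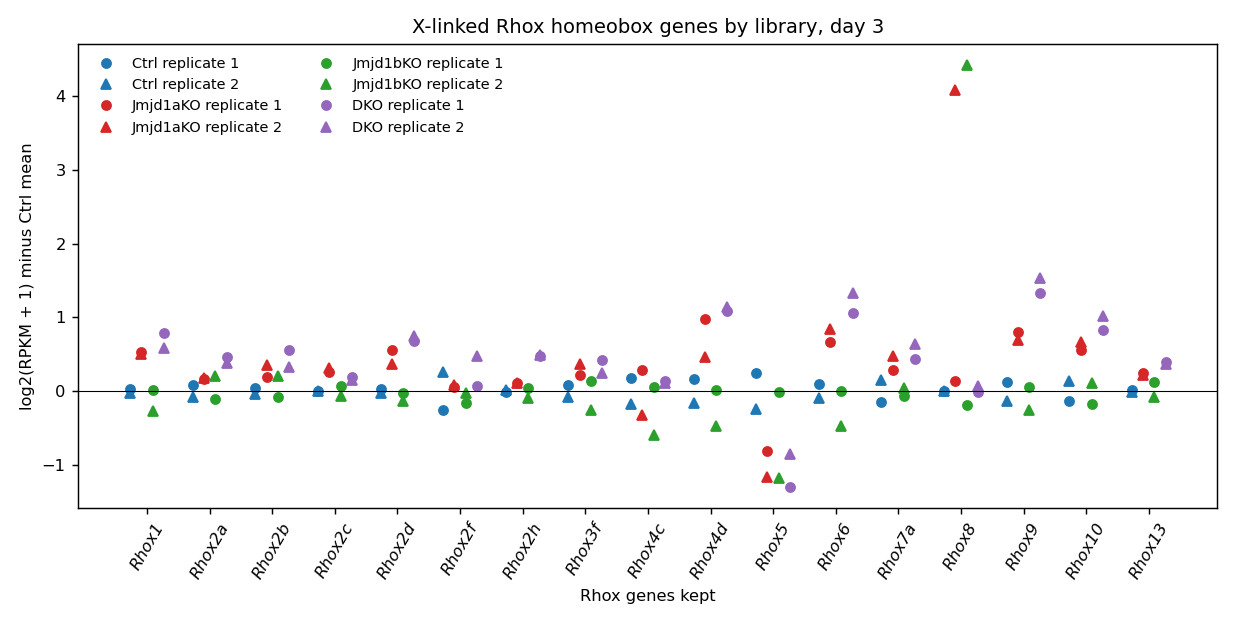
For each of the 17 Rhox genes kept, the points give log2(RPKM + 1) of a library minus the mean of the 2 Ctrl libraries, with circles for replicate 1 and triangles for replicate 2. Red Jmjd1aKO and purple DKO points lie above 0 for most genes and below 0 for Rhox5, and for Rhox8 only the second replicates of Jmjd1aKO and Jmjd1bKO stand out, near 4.

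The shift was not limited to the Rhox genes on that chromosome. Of 486 X-linked genes kept, 29.6% lay above both controls in both knockout libraries and 10.5% below, where 12614 autosomal genes had 16.4% above and 19.7% below. Without the Rhox genes, 27.7% of 469 X-linked genes lay above. The median log2 change of X-linked genes was 0.08 in Jmjd1aKO replicate 1 and 0.09 in replicate 2, against 0.00 and -0.04 for autosomal genes in replicates 1 and 2. In Jmjd1bKO it was -0.04 and 0.01, and from Jmjd1bKO to DKO it was 0.17, against -0.02 for autosomal genes. The shift was small beside the interval of a single gene given above, and no test was made of it.

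Of 26 imprinted genes kept of 32 listed, 7 lay above and 3 below, none was called, and the median log2 change was 0.25 (replicate 1 alone 0.24). Peg10, a retrotransposon-derived gene, stood at 7.72 and 9.41 RPKM in Ctrl and 12.7 and 13.5 RPKM in Jmjd1aKO (log2 change 0.56 ± 0.16, adjusted p = 0.319) and rose in the other loss of Jmjd1a (1.31 ± 0.16, adjusted p = 0.00788). Peg13, a noncoding transcript, was lower, at 2.24 and 1.91 against 0.846 and 1.38 RPKM. H19 overlapped, with 44.3 RPKM in replicate 1 and 93.9 in replicate 2 against 78.9 and 89.4 in Ctrl. Of 28 Mage, Xlr and other germline genes kept, 5 lay above and 7 below, with a median of -0.06 (replicate 1 alone 0.02, replicate 2 alone -0.11). Of 15 genes of MHC class I and antigen presentation kept of 20 listed, 3 lay above and 2 below, and none was called. Over all genes kept, 16.9% lay above and 19.3% below. In the MHC class I list 12 log2 changes were positive and 3 negative, with a median of 0.28 (replicate 1 alone 0.25, replicate 2 alone 0.15). H2-K1, a classical class I gene, stood at 5.55 and 6.24 against 8.29 and 8.72 RPKM, with both knockout libraries above (log2 change 0.47 ± 0.17, adjusted p = 0.385), and it rose in the other loss of Jmjd1a (0.81 ± 0.17, adjusted p = 0.019). Tapbp, which loads peptides onto class I molecules, stood at 14.1 and 16.3 against 18.2 and 23.4 RPKM, and Bst2, an interferon-induced gene, at 24.3 and 33.1 against 33.5 and 47.5 RPKM. Both of these also lay above the controls in both libraries. Irf1, an interferon-response factor, was below both controls in both libraries (log2 change -0.63 ± 0.19, adjusted p = 0.33).

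The list of H3K9 methyltransferases and readers, which also holds partner proteins and Prdm9, showed no call. Of 18 kept, 7 lay below and 1, Prdm9, above, and the median log2 change was -0.11 (replicate 1 alone -0.14, replicate 2 alone -0.10). Ehmt2, the dimethyltransferase G9a, overlapped between groups, at 109 and 110.0 RPKM in Ctrl and 139 and 102 RPKM in Jmjd1aKO. Cdyl, a reader of H3K9 methylation, stood at 23.9 and 22.3 against 18.1 and 18.4 RPKM, with both knockout libraries below (adjusted p = 0.321). Uhrf1, which links that mark to DNA methylation during replication, stood at 182 and 226 against 132 and 160.3 RPKM. In the list of the piRNA pathway and DNA methylation, 22 were kept of 26, 8 lay below and 2 above, and the median was -0.11 (replicate 1 alone 0.01, replicate 2 alone -0.16). Dnmt3b, a de novo methyltransferase, stood at 26.7 and 29.2 against 23 and 24.9 RPKM.

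Of the spermatid genes that Jmjd1a is known to switch on, few were expressed at this age. Of 6 listed, 2 were kept. Tnp1, a transition protein gene, stood at 12.8 and 9.57 RPKM in Ctrl and 14.6 and 15 RPKM in Jmjd1aKO, so the knockout libraries were not lower. Odf1, a sperm tail gene, overlapped at 4.04 and 1.4 against 1.98 and 0.779 RPKM. Of 27 genes of hypoxia and glycolysis kept, 11 lay below and 5 above, with a median of -0.07 (replicate 1 alone -0.12, replicate 2 alone -0.03). Pdk1, a kinase that holds pyruvate back from mitochondria, stood at 24.8 and 26.3 RPKM in Ctrl and 16.8 and 16.2 RPKM in Jmjd1aKO (log2 change -0.60 ± 0.13, adjusted p = 0.24), and Gpi1, a glycolytic isomerase gene, at 218 and 257 against 187 and 182 RPKM. Vegfa, the vascular growth factor, went the other way at 3.66 and 3.12 against 5.18 and 4.85 RPKM. None of the groups overlapped for these 3 genes. Pdk1 fell in the other loss of Jmjd1a, from 27.2 and 29.1 RPKM in Jmjd1bKO to 13.6 and 13.5 RPKM in DKO (adjusted p = 0.00788), and Vegfa rose there (0.63 ± 0.13, adjusted p = 0.0185). Of 18 p53 target genes kept, 2 lay above and 2 below, with a median of -0.07 (replicate 1 alone -0.04, replicate 2 alone -0.09). Of 19 immediate early genes kept, 1 lay above and 2 below, with a median of 0.13 (replicate 1 alone 0.14, replicate 2 alone 0.02).

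Somatic marker lists differed mostly between the 2 knockout libraries. The median log2 change of 21 Sertoli genes kept of 24 was 0.09 in replicate 1 and 3.23 in replicate 2. Amh, the hormone of immature Sertoli cells, stood at 3.09 and 3.84 RPKM in Ctrl and 3.33 and 108 RPKM in Jmjd1aKO. Gata4, a factor of somatic gonad cells, stood at 2.53 and 1.88 against 2.76 and 37.6 RPKM. The 9 peritubular and stromal genes kept had medians of 0.45 in replicate 1 and 0.71 in replicate 2, and the 5 Leydig genes 0.08 and 0.50. Hsd3b1, a Leydig steroid enzyme gene, was listed at 0 in replicate 1 and stood at 5.36 RPKM in replicate 2. Sox18, an endothelial factor, was an exception that was lower in both libraries, at 19.7 and 21.5 RPKM in Ctrl and 8.42 and 10.4 RPKM in Jmjd1aKO (log2 change -1.06 ± 0.28, adjusted p = 0.286), and it fell in the other loss of Jmjd1a (-1.48 ± 0.28, adjusted p = 0.0137). Of the 12 endothelial genes kept, 3 lay below and 1 above, against 19.3% and 16.9% of all genes kept.

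**Figure D5:**
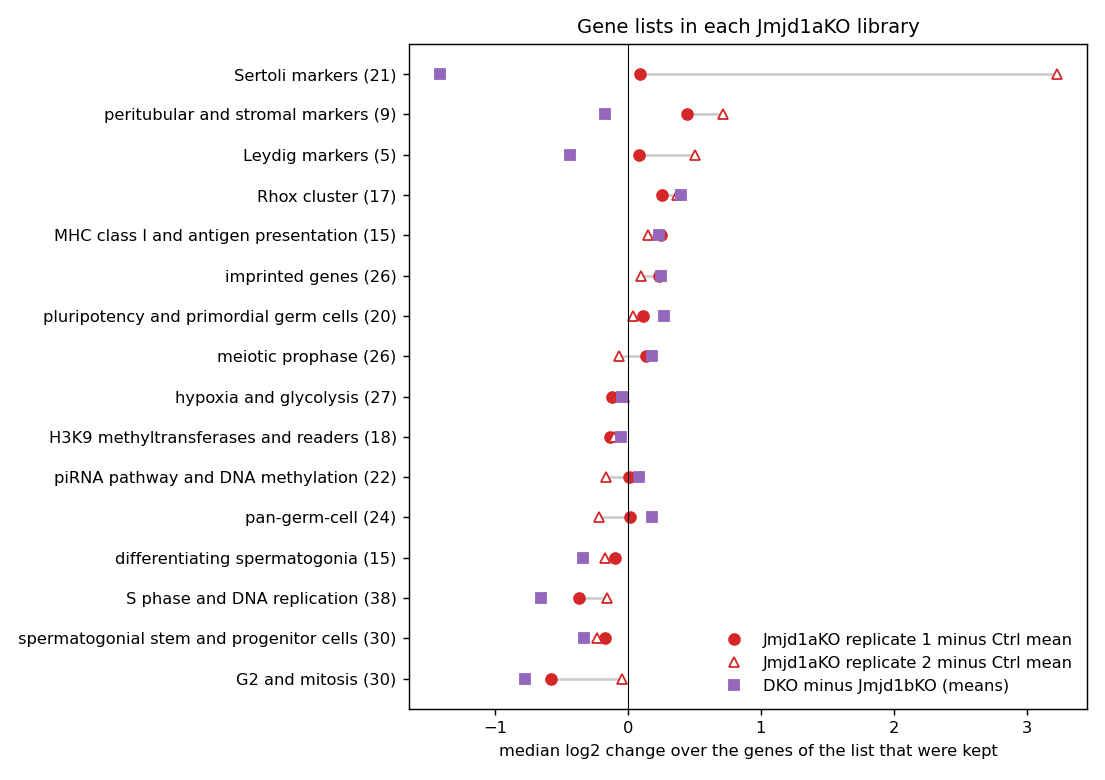
For each gene list, with the number of genes kept in brackets, a filled red circle gives the median log2 change of Jmjd1aKO replicate 1 against the Ctrl mean, an open triangle that of replicate 2, and a purple square that from Jmjd1bKO to DKO. Sertoli markers lie at 0.09 in replicate 1 and 3.23 in replicate 2. The Rhox, stem cell and S phase lists lie on 1 side of 0 in both libraries, as do others shown, among them imprinted genes and MHC class I.

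Set directly against Jmjd1bKO, the converse genotype, Jmjd1aKO differed at 4 genes (0.0294%), 3 higher and 1 lower in Jmjd1aKO (3 and 4 with quantile normalization), and 1424 had an unadjusted p under 0.05. The 4 were Kdm3a, Dppa5a, Mir6898 and Mir23a. Dppa5a was higher in Jmjd1aKO, at 82.5 and 90.1 RPKM against 53 and 48.3 RPKM in Jmjd1bKO (log2 difference 0.76 ± 0.10, limma adjusted p = 0.0471). This call was near the threshold and was lost when small RNA loci were left out, where 0 genes were called higher and 1 lower. The higher calls were 2 with a pseudocount of 0.1, median centring, the 10 P3 libraries or array weights. Kdm3b, which Jmjd1bKO lacks by genotype, stood at 9.81 and 13.9 RPKM in Jmjd1aKO and 4.72 and 7.51 RPKM in Jmjd1bKO, a difference that did not pass (adjusted p = 0.263). Mir23a stood at 54.1 and 45.2 RPKM in Jmjd1aKO and was listed at 0 in both Jmjd1bKO libraries. Eml2 and 1700015G11Rik did not pass here (adjusted p = 0.124 and 0.07).

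Removal of the last Jmjd1b copy from the Jmjd1aKO genotype, the step from Jmjd1aKO to DKO, also gave 4 calls (0.0294%), all lower in DKO, and 1455 genes with an unadjusted p under 0.05. Without the filter on low values the calls were 170, of which 152 were higher in DKO and 18 lower. Among them were Exoc3l, a gene related to the exocyst, and Mir6898 and Mir23a, which were listed at 0 in both DKO libraries. Exoc3l stood at 9.43 and 9.36 RPKM in Jmjd1aKO and 3.2 and 3.52 RPKM in DKO (log2 difference -1.25 ± 0.13, limma adjusted p = 0.0062). Kdm3b stood at 9.81 and 13.9 RPKM in Jmjd1aKO and 4.26 and 4.48 RPKM in DKO and did not pass (adjusted p = 0.276). Cd209c was higher in DKO, at 374 and 137 against 78.1 and 48 RPKM, and did not pass (adjusted p = 0.448). Without DKO replicate 2 the number of calls was 10, and without Jmjd1aKO replicate 2 it was 3.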

How the data were processed

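RNA of 14 libraries from male germ cells was extracted (AllPrep DNA/RNA Micro kit) and made into libraries (TruSeq Stranded mRNA LT kit), per the labels' protocols. The deposited values are RPKM made by the authors; TopHat2 2.1.1, Cufflinks 2.1.1 and the mm10 genome are named in the submitters' processing notes, and the role of each, the annotation and the use of strand are not given in the sources used here. The files hold no counts. Depth was therefore estimated from RPKM steps at low genes with a single annotated transcript (800 to 8000 nucleotides). In each library 68% to 74.4% of the genes used came within 0.2 of whole fragments (40% by chance at a fixed depth). The depth was chosen among many tried for a high share, so the share by chance after that choice is higher and was not computed. As fewer than nearly all did, reads were not recovered and no count test was run.

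The analysis used log2(RPKM + 1) and added no scaling. The filter asked for 1 RPKM or more in 2 or more of the 4 libraries of Jmjd1aKO and Ctrl (13598 of 24340 genes). limma 3.58.1 in R 4.3.3 (trended eBayes) was fitted with 1 coefficient per group over all 14 libraries, which leaves 7 degrees of freedom for the spread. All tests are two-sided, with Benjamini-Hochberg adjustment over the genes kept within each comparison and a threshold of 0.05. Groups of 2 allow no permutation test that could pass it. The fit was tried on simulated data with known changes. It recovered 70% of 100 genes with a true log2 change of 1 and 97% of 100 with a change of 2, with 9 false calls. The changed genes were drawn only from those well above the filter level in Ctrl. These shares therefore do not cover genes of low RPKM. The draws gave a gene the same spread in every library, so they do not cover a library that departs as Jmjd1aKO replicate 2 did.

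The genes and lists were chosen with earlier results of these data known. The genes named were Kdm3a, Kdm3b, the called genes, 12 genes at each end of the log2 changes with unadjusted p under 0.05 and no overlap of groups (microRNA, small nucleolar RNA, predicted and Rik entries left out), and from each list its called members, else up to 4 members of lowest p whose groups do not overlap, else the 2 of highest RPKM; other list members were chosen by their role after their values were seen. One called gene outside the main comparison is not reported here. Positions are from GENCODE M21 (GRCm38), which held 95.75% of the symbols, and sequences from RefSeq (GRCm38.p6). The alternatives tried were other pseudocounts, filters and scalings, fits on fewer libraries, array weights, a Sertoli covariate, a block for the replicate number, omission of small RNA loci and omission of each library.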

Additional observations from a re-analysis of the deposited data

Results flagged for a closer look

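The difference between the 2 losses of Jmjd1a was tested for every gene kept, and it passed at 2 of the genes named. At Mir6898 the limma adjusted p of the difference was 3.61e-07: the locus was listed at 0 in Ctrl, Jmjd1bKO and DKO and at 46.2 and 40.4 RPKM in Jmjd1aKO. At Mir93 it was 1.25e-06: the locus stood at 23.3 and 21.1 RPKM in Ctrl and was listed at 0 in the other 3 groups. For Kdm3a, Eml2 and 1700015G11Rik, the other genes called in Jmjd1aKO, this difference did not pass. At Mir6898 and Mir93, groups listed at 0 in both libraries show no spread, which lowers the SE behind the p-values, also in the alternatives below.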

How the results depend on the processing

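Among the named genes, Kdm3b, which was not called and had a change near 0, took both signs when single libraries were left out (-0.24 to 0.23). The balance of higher and lower calls did turn without the filter on low values. Between Jmjd1aKO and DKO it went from 0 higher and 4 lower to 152 and 18. Between Jmjd1bKO and DKO it went from 1014 and 1142 to 2177 and 1078. There it was 898 and 682 with quantile normalization and 1275 and 1160 with the filter over all 14 libraries. For the difference between both losses it went from 2 and 1 to 12 and 60 without the filter. Of the 5 genes called against Ctrl, Mir6898 and Mir93 passed in all 17 alternatives that could be computed for them, Kdm3a in 16 of 18 (adjusted p = 0.141 when only its 2 groups were fitted, 0.0905 with the replicate block added), Eml2 in 8 of 18 and 1700015G11Rik in 6 of 17. Eml2 and 1700015G11Rik both lost their calls without a filter on low values (adjusted p = 0.0577 and 0.0854), in a fit of the 10 P3 libraries (0.156 for each), without both libraries high in Sertoli transcripts (0.115 and 0.178) and with a Sertoli covariate (0.0516 for each); the cause was not tested. Cd209c passed with the replicate block (0.0494 over all 14 libraries), Dppa5a with quantile normalization (0.0165) and Apoc2 without Jmjd1aKO replicate 1 (0.0158).

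The number of genes called against Ctrl, 5, became 12 without the filter, 11 with quantile normalization, 12 when only the groups compared were fitted, 3 with array weights and 3 without small RNA loci, and it was 4 to 6 when 1 library was left out. Against Jmjd1bKO the 4 calls became 20 without the filter, 7 with quantile normalization, 7 in the fit of the groups alone, 30 with the Sertoli covariate and 1 without small RNA loci, and 4 to 5 with 1 library left out. From Jmjd1aKO to DKO the 4 calls became 170 without the filter, 10 in the fit of the groups alone and 2 without small RNA loci, and 3 to 10 with 1 library left out. From Jmjd1bKO to DKO the 2156 calls became 3255 without the filter, 921 with the P3 libraries, 588 without the libraries high in Sertoli transcripts, 879 with array weights and 6 in the fit of the groups alone, and 19 to 3325 with 1 library left out. The 3 calls of the difference between both losses became 72 without the filter, 5 with a filter over all 14 libraries, 5 with the P3 libraries, 5 in the fit of the groups alone and 1 without small RNA loci, and 3 to 6 with 1 library left out. With small RNA loci left out the lower counts follow from the removal of called loci, except against Jmjd1bKO. There Dppa5a lost its call as well.

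Ctrl and Jmjd1aKO share replicate numbers, but the labels do not say that a number marks a shared litter or day. The difference between replicates 1 and 2 correlated between these groups at r = 0.226 over 13598 genes, which with 2 pairs does not show pairing. With the replicate number as a block the calls against Ctrl were 6 over all 14 libraries and 15 in the groups alone; in the groups alone the replicate block gave 26 against Jmjd1bKO, 13 from Jmjd1aKO to DKO, 13 from Jmjd1bKO to DKO and 7 for the difference.

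Precision is limited by 2 libraries a group. The estimated depth was 26.4 M fragments in Jmjd1aKO replicate 2 against 39 to 43.9 M in the other 3, and its part in the precision was not tested. Fits that leave out 1 library assume that the lone library varies like the other groups.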

Other observations

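Genes near the deleted locus did not stand apart. Of 43 genes kept within 10 Mb of the start of Kdm3a on chromosome 6, other than Kdm3a itself, 9 lay above both controls in both Jmjd1aKO libraries (20.9%) and 8 below (18.6%), against 16.9% and 19.3% of all genes kept, and 4 had an unadjusted p under 0.05 (9.3%, against 10.6%).

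Kdm3a itself was not lowest in the group without both genes. It stood at 9.83 and 9.84 RPKM in Jmjd1aKO and at 12.1 and 14.3 RPKM in DKO, where Kdm3b was 4.26 and 4.48 RPKM. The difference of Kdm3a between Jmjd1aKO and DKO did not pass (log2 difference 0.39 ± 0.11, limma adjusted p = 0.448).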
